A study of Homo sapiens with 36 samples.

Results

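The clustered histone genes are the protein-coding genes whose GENCODE v19 symbols begin with HIST1H, HIST2H, HIST3H or HIST4H. Membership was decided by symbol alone, but the set was chosen with earlier results of these data known. Of the 57820 gene identifiers in the count table, 37 could be linked to such a symbol, and only these are called members here. They comprised 6 H1, 9 H2A, 10 H2B, 7 H3 and 5 H4 genes, with 24 in the HIST1 cluster on chromosome 6, 9 in HIST2 and 3 in HIST3 on chromosome 1, and 1 in HIST4 on chromosome 12. RefSeq lists 71 protein-coding genes of these clusters, and the 34 whose symbols could not be linked to an identifier of the table were not analysed here. The 36 RNA-seq libraries came from A2780, an established line of human ovarian carcinoma. Its sensitive parental form (wt), a platinum-resistant form (cis) and a form of the latter selected to proliferate without serine and glycine (cis SSP) were grown either in complete medium or in medium free of both amino acids (-SG), each untreated or treated with carboplatin (carbo), a platinum drug that crosslinks DNA. Each of the 12 conditions had 3 libraries, which the study describes as technical replicates, so every p-value measures the spread between such libraries and not between independent cultures. The labels give the carboplatin dose as 6 M. That unit is doubtful, since the methods describe carboplatin in micromolar amounts.

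Histones are the proteins around which DNA is wrapped: an octamer of H2A, H2B, H3 and H4 forms the core of the nucleosome, and H1 linker histones bind where DNA enters and leaves it. The clustered genes supply most of the histones that dividing cells need during S phase, and their mRNAs classically end in a conserved stem-loop, bound by SLBP, in place of a poly(A) tail. Some clustered genes can also give polyadenylated mRNA from a more distal end, in differentiated or arrested cells above all. According to the labels, mRNA was isolated here with oligo(dT) beads, which bind poly(A), so the values describe the transcripts of these genes that such beads retain.

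The stem-loop is shown because it marks the 3′ end that oligo(dT) beads do not bind. A search of the 100 bases after each stop codon in GRCh37, on the sense strand, for a stem of 6 base pairs that starts with GG and ends with CC around a loop of 4 bases, G-U pairs allowed, found it in 37 of 37 members. The same pattern stood after a stop codon of 2.12% of 19974 other protein-coding genes. Capitals mark the stem and lower case the loop, in DNA letters. The first form occurred in 22 members, the second in 8, the third in the 5 H4 members and the last 2 in 1 member each.
HIST1H1C, chr6:26055972-26055987, minus strand: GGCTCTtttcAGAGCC
HIST1H2BK, chr6:27114145-27114160, minus strand: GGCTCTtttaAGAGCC
HIST1H4H, chr6:26285359-26285374, minus strand: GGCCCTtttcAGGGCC
HIST1H2AG, chr6:27101294-27101309, plus strand: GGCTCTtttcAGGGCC
HIST2H2AC, chr1:149858941-149858956, plus strand: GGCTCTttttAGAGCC
The most abundant member, HIST1H2BK, thus carried the same kind of 3′ end signal as members without a single count.

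Promoters of 4 members are shown because their genes stand for the patterns described below: HIST1H2BK and HIST1H1C as the most abundant, HIST1H2AG, which shares its upstream region with HIST1H2BJ, and HIST1H2AC, which shares it with HIST1H2BC. They run from 250 bases before to 50 bases after the start in RefSeq (GRCh38.p14), and capitals mark the octamer ATTTGCAT on either strand, which the promoter of HIST1H1C lacks.
HIST1H2BK, chr6:27146809-27147108, minus strand: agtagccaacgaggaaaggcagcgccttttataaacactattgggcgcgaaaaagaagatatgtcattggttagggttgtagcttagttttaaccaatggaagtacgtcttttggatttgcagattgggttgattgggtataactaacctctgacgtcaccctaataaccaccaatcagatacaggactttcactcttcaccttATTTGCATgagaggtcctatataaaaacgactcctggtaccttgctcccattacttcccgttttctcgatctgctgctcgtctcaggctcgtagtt
HIST1H2AG, chr6:27132793-27133092, plus strand: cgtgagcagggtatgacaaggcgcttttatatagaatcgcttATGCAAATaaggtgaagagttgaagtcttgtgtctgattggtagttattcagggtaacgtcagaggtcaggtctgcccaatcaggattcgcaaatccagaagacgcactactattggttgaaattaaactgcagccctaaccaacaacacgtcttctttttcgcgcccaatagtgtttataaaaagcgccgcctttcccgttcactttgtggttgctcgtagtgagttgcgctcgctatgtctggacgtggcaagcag
HIST1H2AC, chr6:26123922-26124221, plus strand: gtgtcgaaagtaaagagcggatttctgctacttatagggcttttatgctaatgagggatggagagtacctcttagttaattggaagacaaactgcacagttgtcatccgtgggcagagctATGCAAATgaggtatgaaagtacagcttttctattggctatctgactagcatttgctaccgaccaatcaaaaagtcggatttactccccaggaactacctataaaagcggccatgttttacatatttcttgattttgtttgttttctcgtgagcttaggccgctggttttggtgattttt
HIST1H1C, chr6:26056421-26056720, minus strand: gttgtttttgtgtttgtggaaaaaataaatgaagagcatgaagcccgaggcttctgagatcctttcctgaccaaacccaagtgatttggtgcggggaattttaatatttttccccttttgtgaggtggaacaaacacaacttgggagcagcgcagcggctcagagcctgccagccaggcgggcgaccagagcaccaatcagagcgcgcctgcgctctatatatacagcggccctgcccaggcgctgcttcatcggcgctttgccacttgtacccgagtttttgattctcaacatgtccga
RefSeq held a promoter for 35 of the 37 members. HIST1H2AD and HIST1H3D were given the same interval, so these were 34 distinct sequences. The octamer was present in 12 of the 34, or 35.3%, against 1.79% of 27056 distinct promoters of the same length. It stood in the promoters of 6 of 9 H2A and 6 of 10 H2B genes and in none of the 6 H1 or 4 H4 promoters. The 1 of 6 H3 promoters that held it was the interval of HIST1H3D shared with HIST1H2AD. Promoters of HIST1H2AA and HIST1H2BA, of HIST1H2AC and HIST1H2BC, of HIST1H2AG and HIST1H2BJ, and of HIST2H2AC and HIST2H2BE overlap on opposite strands. With both strands read, the same octamer was counted for both genes of each of these pairs. The 12 sequences therefore do not hold 12 separate sites. CCAAT was found in 88.2% of the distinct member promoters against 35.7% of all distinct promoters, and TATAAA in 25 of the 34 against 3248 of the 27056, with both strands read and a match of one motif free to overlap a match of another. None of the 4 H4 promoters held CCAAT, which stood in every other member promoter matched.

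Total counts on genes were 13074937 to 20441582 per library, of which members took 116263 over the 36 libraries. Library 25 of cis SSP and library 32 of cis SSP -SG stood apart from the other libraries of their conditions, with a mean chi-square of counts over genes of at least 93.3 against them. The summed member level was 130 CPM in library 25 and 84.4 and 81.8 CPM in the other cis SSP libraries, and 147 CPM in library 32 against 90.3 and 92.4 CPM. Results that include them are therefore given with and without them. Library 11 of wt -SG carbo stood apart less, with a mean chi-square of 22.9 and 22 against the other libraries of its condition. Those had 1.18 between them. The summed member level was 633 CPM in library 11 and 527 and 534 CPM in the others. Reads not assigned to a counted exon were 4.21% to 9.31% of counts except in libraries 23 and 24 of cis -SG carbo, where they reached 17.9%. Of the markers checked, the leukocyte gene CD3E was at 0 and PTPRC was at most 0.0382 CPM in any condition mean. Of the 8 genes of the epithelial and Müllerian list, KRT7, CDH1, PAX8 and MUC16 stayed below 1 CPM, whereas KRT18 reached 41.5 CPM. A mean of 1 CPM or more was reached by 3 of the 8 in wt -SG carbo and by 3 in cis -SG. The fibroblast markers DCN and LUM were up to 24.7 and 5.50 CPM in the cis SSP conditions, and at most 0.729 and 1.02 CPM elsewhere. The summed level of the epithelial and Müllerian list was 2.01 CPM in wt and 45.0 CPM in cis -SG, the lowest and the highest of the 12 conditions. Their part in the results was not tested.

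A member was taken as detected where its mean reached 1 CPM (a gene's count per 1000000 counts of its library, scaled by TMM) in any condition. By this rule 15 of 37 members were detected: HIST1H2BK, HIST1H1C, HIST1H2AC, HIST1H2BJ, HIST1H2AG, HIST1H2BD, HIST3H2A, HIST1H4H, HIST1H2BC, HIST1H2BN, HIST4H4, HIST1H3D, HIST1H2AI, HIST3H2BB and HIST1H1E. They covered 2 of 6 H1, 4 of 9 H2A, 6 of 10 H2B, 1 of 7 H3 and 2 of 5 H4 genes. The number at 1 CPM or more was 15 in wt -SG carbo and 14 in wt carbo but 6 in cis, and 6 members held that level in every condition. Of the 22 members that were not detected, 11 had between 2 and 228 counts over all libraries, among them HIST1H4C, HIST1H4B and the linker histone genes HIST1H1A, HIST1H1B, HIST1H1D and HIST1H1T. The other 11 had no count. As to counting error, 3 counts were taken as the limit that a count of 0 allows. That is 0.00486 CPM over the 36 libraries and 0.147 to 0.229 CPM in a single library. A count of 0 sets no such limit for HIST2H3A, HIST2H3C and HIST2H2AA3, in which no stretch of read length is unique in the genome. The limit is uncertain for HIST2H3D and HIST2H3PS2, with 25.9% and 28.6% of such stretches unique. It is also uncertain for HIST1H2AD, whose start in RefSeq is also that of HIST1H3D. The same holds for HIST2H2AB, which overlaps BOLA1 on the opposite strand, since the strand setting of the counting is not given. The treatment of reads that fall on more than one gene is not given in the sources used here.

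**Figure D1:**
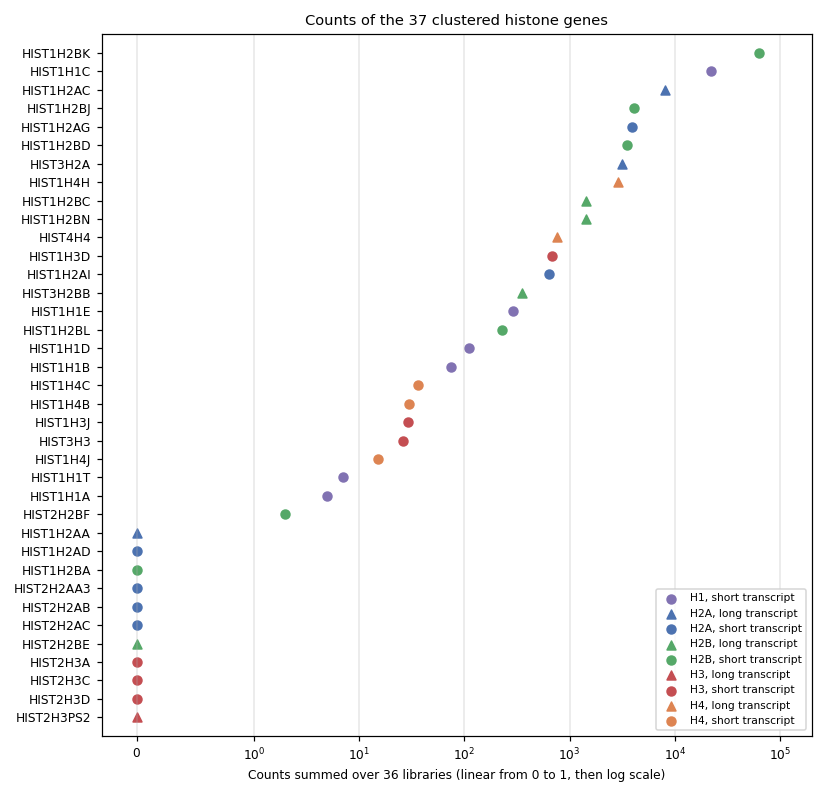
Counts of each of the 37 members summed over the 36 libraries (x axis, linear from 0 to 1 and then logarithmic), coloured by family, with triangles for genes whose longest annotated transcript has 1000 bases or more and circles for shorter ones. HIST1H2BK, with 62369 counts, lies at the top and 11 members lie at 0.

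The level was concentrated in a pair of genes. HIST1H2BK, an H2B gene, held 53.6% of all member counts, and HIST1H1C, which encodes a linker histone, held 19.02%. Per kilobase of the longest annotated transcript, the mean over the 36 libraries was 207 CPM for HIST1H2BK, 50.6 for HIST1H1C, 12.96 for HIST1H2AG, 7.83 for HIST1H2AC, 7.21 for HIST1H2BD and 7.10 for HIST1H2BJ, and at most 3.17 for any other member. The annotation used for these lengths is later than that used for counting. By these lengths, 7 of 10 members with a transcript of at least 1000 bases and 8 of 27 shorter ones were detected. The shorter ones took 84.4% of member counts, and HIST1H2BK and HIST1H1C, both among them, took 72.7%. Of the 13 members with an annotated transcript of 2 or more exons, 9 were detected, against 6 of the 24 with a single exon.

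Near-identical copies limit some of these values, since the treatment of reads with several alignments is not given in the sources used here. All 65-base windows, the read length, were compared with GRCh37. HIST1H2BK had 52.9% unique windows and shared 39.0% with H2BC12L, an H2B gene that had 28 counts in all libraries. HIST1H2AI had 37.8% unique windows and shared 62.2% with H2AC14. HIST1H4J had 8.31% unique windows. The other 9 members among the 10 most abundant were at least 96.3% unique. HIST1H2BC overlaps HFE and HIST1H4C on the opposite strand and HIST1H1T on its own strand, and the strand setting of the counting is not given in the sources used here either.

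Platinum-resistant cells had less RNA of these genes than their sensitive parents. HIST1H2BK stood at 115, 114 and 114 CPM in the 3 wt libraries and at 16.9, 15.7 and 15.8 CPM in the 3 cis libraries. The cis libraries all lay below the wt libraries, with a log2 fold change of -2.85 (SE 0.0471, adjusted p = 1.77e-41, quasi-likelihood test of edgeR, Benjamini-Hochberg adjusted over all genes tested), or 7.19-fold lower. HIST1H2AG, an H2A gene, changed most, from 5.87, 5.67 and 5.86 CPM to 0.847, 0.534 and 0.779 CPM, a log2 fold change of -3.03 (SE 0.198). In bulk samples such as these, fewer cells with a transcript and less of it per cell cannot be told apart.

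HIST1H1C fell from 29.5, 27.5 and 27.8 CPM in wt to 8.21, 7.75 and 8.17 CPM in cis. HIST1H2AC, an H2A gene, fell from 14.2, 13.1 and 11.9 CPM to 2.54, 2.41 and 2.22 CPM. Neither gene had overlapping groups, and their log2 fold changes were -1.83 (SE 0.0758) and -2.46 (SE 0.124). The filter on low counts passed 11 of 37 members in this comparison, and 11 were called lower. Of 14431 genes tested, 39.1% were called lower and 78.5% in either direction. A gene can pass this filter by its level in either group alone. Without it, 14 of the 23 members with any count here were called, all lower. The median log2 fold change of the 11 that passed was -1.87, against 0.00 over all genes tested. HIST1H2BC, an H2B gene, changed least among them, from a mean of 1.55 to 0.765 CPM (log2 fold change -1.03, SE 0.262). All 11 also differed by 2-fold or more (a log2 change of 1 or beyond), a call that 24.6% of all genes tested received. The summed member level was 185 to 191 CPM in wt and 34.2 to 37.5 CPM in cis.

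**Figure D2:**
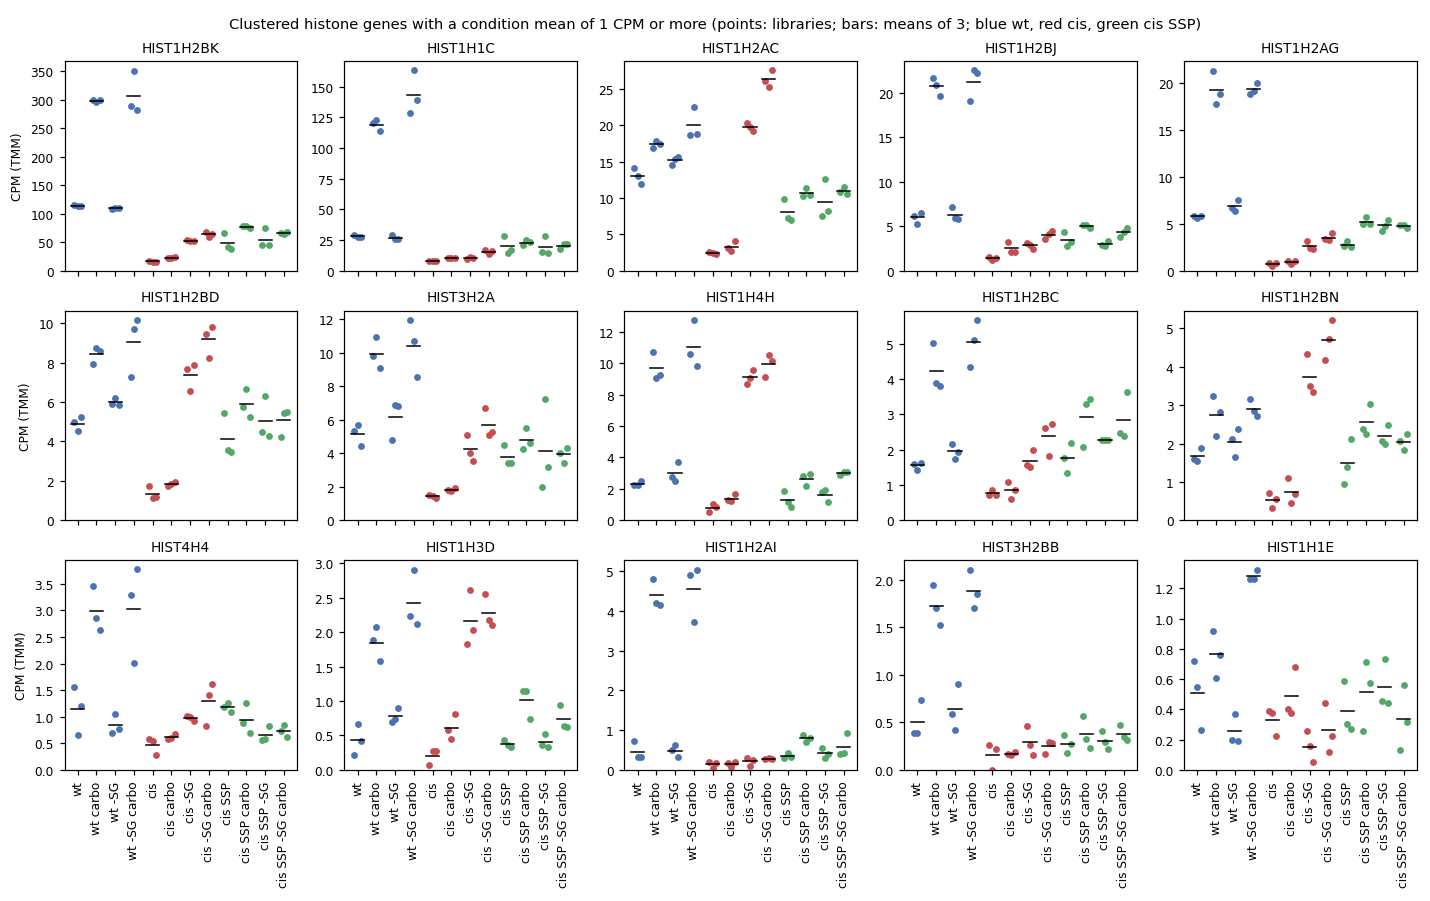
CPM of the 15 detected members (one panel each, y axis from 0) in the 12 conditions (x axis), with a point for each library, a bar for the mean of 3, blue for wt, red for cis and green for cis SSP. HIST1H2BK, HIST1H1C, HIST1H2BJ and HIST1H2AG peaked in wt cells with carboplatin, whereas HIST1H2AC and HIST1H2BN had their highest means in cis -SG carbo.

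Carboplatin raised these genes in sensitive cells. The summed member level rose from 185 to 191 CPM in wt to 514 to 532 CPM in wt carbo. HIST1H2BK went to 300, 296 and 299 CPM (log2 fold change 1.39, SE 0.0247, 2.62-fold) and HIST1H1C to 121, 123 and 114 CPM (2.08, SE 0.0400, 4.24-fold). For both genes every treated library lay above every untreated one. HIST1H2AI, an H2A gene, changed most, with 25 counts over the wt libraries and 229 over the wt carbo libraries (mean 0.455 and 4.39 CPM, log2 fold change 3.27, SE 0.241).

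HIST1H4H, an H4 gene, stood at 2.21, 2.26 and 2.51 CPM without carboplatin and at 10.7, 9.08 and 9.25 CPM with it (log2 fold change 2.06, SE 0.132). HIST1H3D, the H3 gene detected here, went from 0.221, 0.661 and 0.419 CPM to 1.89, 2.07 and 1.58 CPM (2.08, SE 0.303). HIST1H2BJ, an H2B gene, went from 6.20, 5.28 and 6.49 CPM to 21.7, 20.9 and 19.7 CPM (1.80, SE 0.0870). In none of these genes did the groups overlap. Of the 15 members tested, 14 were called higher, where 38.9% of 14639 genes were called higher. The 14 had adjusted p-values of at most 4.32e-04 by edgeR. HIST1H1E, a linker histone gene, was at a mean of 0.511 and 0.763 CPM in overlapping groups (adjusted p = 0.116). HIST1H2AC, HIST1H2BN and HIST1H2BD had the lowest called log2 fold changes here, at 0.42 (SE 0.0756), 0.72 (SE 0.198) and 0.78 (SE 0.114). With no filter on low counts, 14 of 26 members were called, all higher.

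Without serine and glycine, carboplatin gave a like picture in wt cells. HIST1H1C rose from 28.8, 25.8 and 25.7 CPM in wt -SG to 129, 163 and 139 CPM in wt -SG carbo (log2 fold change 2.43, SE 0.0937). HIST1H2BK rose from 107, 110 and 110 CPM to 289, 352 and 282 CPM (1.49, SE 0.0813). The second wt -SG carbo library was the highest for both genes, and no treated library overlapped an untreated one. HIST1H2AI had the largest log2 fold change again, at 3.19 (SE 0.252). HIST4H4, an H4 gene outside the chromosome 6 cluster, rose from a mean of 0.841 to 3.03 CPM (1.84, SE 0.297). Of 15 members tested, 15 were called higher, where 34.3% of 14467 genes were called higher. HIST1H1E was among them, with a mean of 1.28 CPM in wt -SG carbo (2.30, SE 0.315, adjusted p = 1.33e-04 by edgeR). Without library 11 of wt -SG carbo, 15 of 15 members were called, all higher. With no filter on low counts, 14 of 25 members were called, all higher.

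In resistant cells the response to carboplatin was smaller. HIST1H2BK stood at 22.6, 22.01 and 24.4 CPM in cis carbo against 16.9, 15.7 and 15.8 CPM in cis (log2 fold change 0.53, SE 0.0706). HIST1H1C stood at 10.4, 10.5 and 10.1 CPM against 8.21, 7.75 and 8.17 CPM (0.37, SE 0.0959), and HIST1H2BJ at 3.27, 2.12 and 2.11 CPM against 1.56, 1.23 and 1.39 CPM (0.88, SE 0.226). These were the 3 members called among 10 tested, all higher, where 9.27% of 13458 genes were called higher. All 10 had positive log2 fold changes, from 0.20 to 0.88, and 5 had an unadjusted p under 0.05. None was called at a log2 change of 1 or beyond, as 0.334% of all genes were. DESeq2 called 1 of the 4 members to which it gave an adjusted p, and one fit over the 36 libraries called 1 of 16.

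The comparisons of cis with wt and of each line with its treated cells share their untreated libraries. The difference between the responses of wt and cis cells was tested by an interaction term. It was called for 8 of 15 members tested, with the larger response in wt for each of the 8, where 27.2% of 15300 genes were called in that direction and 57.6% in either. For HIST1H1C the log2 response of wt exceeded that of cis by 1.71 (SE 0.105, adjusted p = 1.46e-21 by edgeR), for HIST1H2BK by 0.86 (SE 0.0664, adjusted p = 2.44e-17) and for HIST1H2AG by 1.33 (SE 0.345, adjusted p = 7.45e-04). It was 1.27 (SE 0.333) for HIST1H4H, 1.26 (SE 0.377) for HIST1H2BC, 0.91 (SE 0.248) for HIST1H2BJ and 0.59 (SE 0.256) for HIST3H2A, an H2A gene of the HIST3 cluster. The value of HIST1H2AI, 3.11 (SE 0.890), rests on 7 counts over the 3 cis libraries and 7 over the 3 cis carbo libraries. For HIST1H2AC the difference was -0.07 (SE 0.190, adjusted p = 0.802), and for HIST1H2BD and HIST1H2BN it was 0.31 (SE 0.261) and 0.15 (SE 0.454), none of them called. At a log2 difference of 1 or beyond 5 members were called, where 14.2% of all genes were. With no filter on low counts, the interaction was called for 7 of 26 members.

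**Figure D3:**
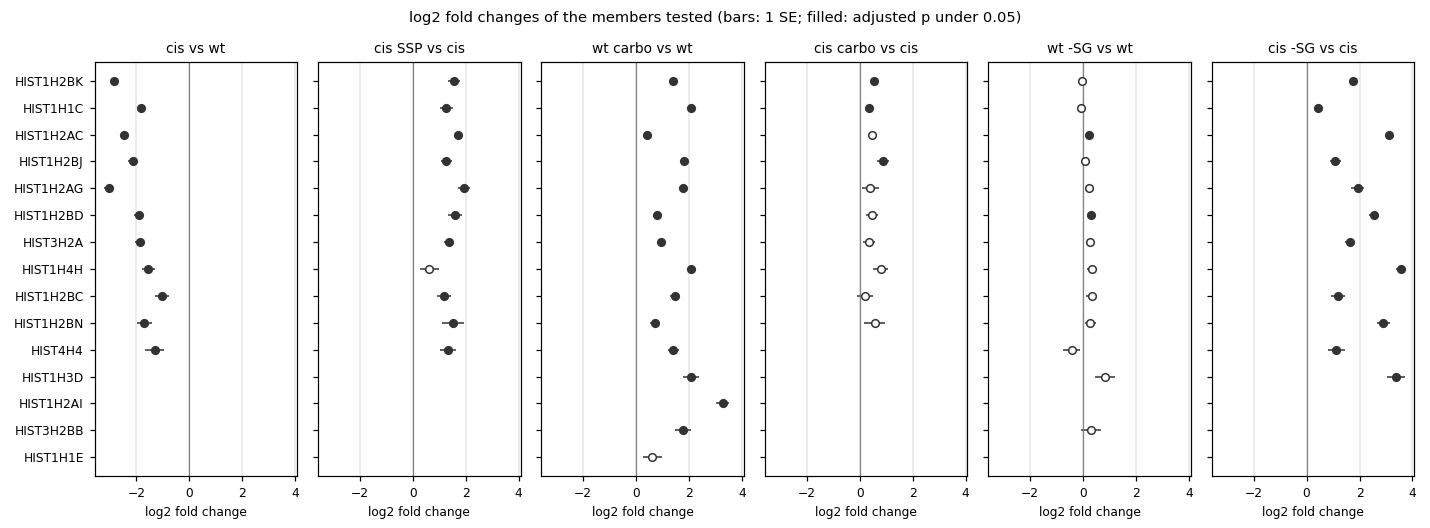
log2 fold changes (x axis) of the members tested (y axis, the 15 detected members in order of mean level) in 6 comparisons, with bars of 1 SE and filled points at an adjusted p under 0.05. The members tested lie left of 0 in cis against wt, and right of 0 in wt carbo against wt and in cis -SG against cis.

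With serine and glycine also absent, carboplatin in cis cells moved HIST1H2AC from 20.3, 19.8 and 19.2 CPM to 26.1, 25.4 and 27.6 CPM (log2 fold change 0.42, SE 0.0621). HIST1H1C went from 9.53, 11.4 and 9.96 CPM to 16.6, 13.4 and 15.9 CPM (0.58, SE 0.100). Groups did not overlap in either gene. HIST1H2BJ (0.52), HIST1H2BD (0.32) and HIST1H2BK (0.30) were also called, making 5 of 12 members tested, all higher, where 10.9% of 14476 genes were called higher, and 0 at a log2 change of 1 or beyond, where 1.58% of genes were. The number of calls was 3 with library 20 or 21 of cis -SG or library 24 of cis -SG carbo left out, 3 by DESeq2 and 2 in one fit over the 36 libraries. Library 24 is one of those with many reads not assigned to a counted exon.

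Removing serine and glycine raised these genes in resistant cells, with another order among them. HIST1H4H rose from 0.521, 1.02 and 0.834 CPM in cis to 8.67, 9.04 and 9.60 CPM in cis -SG, a log2 fold change of 3.55 (SE 0.174, adjusted p = 4.83e-23 by edgeR, 11.68-fold). HIST1H2AC rose from 2.54, 2.41 and 2.22 CPM to 20.3, 19.8 and 19.2 CPM (3.11, SE 0.108, 8.64-fold). HIST1H3D went from 11 counts over the cis libraries to 126 over the cis -SG libraries (mean 0.204 and 2.16 CPM, 3.37, SE 0.346). The deprived libraries lay above every cis library in these genes, by more than the spread within either group.

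HIST1H2BN, an H2B gene, rose from 0.717, 0.321 and 0.556 CPM to 4.33, 3.50 and 3.35 CPM (2.89, SE 0.246). HIST1H2BD, another H2B gene, rose from 1.76, 1.12 and 1.17 CPM to 7.70, 6.58 and 7.87 CPM (2.53, SE 0.166). HIST1H2BK rose from 16.9, 15.7 and 15.8 CPM to 53.6, 51.6 and 51.8 CPM (1.76, SE 0.0573). HIST1H1C, the member with the second highest level, had the lowest fold change, at 0.42 (SE 0.0982, adjusted p = 1.82e-04 by edgeR), from a mean of 8.05 to 10.3 CPM. Of 12 members tested, 12 were called higher, where 37.6% of 14122 genes were called higher, and their median was 1.84 against 0.01 over all genes tested. With no filter on low counts, 13 of 24 members were called, 12 higher and 1 lower. The summed level was 34.2 to 37.5 CPM in cis and 116 to 122 CPM in cis -SG.

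In sensitive cells the same deprivation left these genes close to their level in complete medium. The summed level was 186 to 190 CPM in wt -SG against 185 to 191 CPM in wt. HIST1H2AC stood at 14.6, 15.4 and 15.6 CPM against 14.2, 13.1 and 11.9 CPM (log2 fold change 0.22, SE 0.0797) and HIST1H2BD at 5.91, 6.20 and 5.85 CPM against 4.98, 4.51 and 5.24 CPM (0.29, SE 0.116). These were the 2 members called among 13 tested, where 24.1% of 14284 genes were called higher and 49.2% in either direction. HIST1H2BK had a log2 fold change of -0.06 (SE 0.0312) and HIST1H1C of -0.07 (SE 0.0605), neither of them called. The number of calls was 1 with library 1, 2 or 8 left out and 0 with library 9 left out, and DESeq2 and one fit over the 36 libraries called 0 each. None of the 13 was called at a log2 change of 1 or beyond, as 1.82% of all genes were. Whether wt and cis cells responded differently to deprivation was not tested here.

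The cells that grew out of the resistant line without serine and glycine had higher levels than that line, both in complete medium. HIST1H2BK stood at 66.5 CPM in library 25 of cis SSP and at 42.1 and 37.4 CPM in the other libraries, against 16.9, 15.7 and 15.8 CPM in cis. The log2 fold change was 1.56 (SE 0.212), and 1.31 (SE 0.0718, adjusted p = 1.51e-17 by edgeR) without library 25. HIST1H2AG stood at 2.64, 3.14 and 2.51 CPM against 0.847, 0.534 and 0.779 CPM (1.93, SE 0.230, and 1.98 without library 25). HIST1H2AC stood at 9.90, 7.24 and 6.99 CPM against 2.54, 2.41 and 2.22 CPM (1.72, SE 0.170, and 1.59 without it). All cis SSP libraries lay above all cis libraries in these genes.

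HIST1H2BD (1.59, SE 0.264) and HIST1H2BN (1.52, SE 0.425) were also called higher, and HIST1H1C had 1.27 (SE 0.238, and 0.98 without library 25). Of 11 members tested, 10 were called higher, where 15.8% of 13714 genes were called higher. HIST1H4H, from a mean of 0.790 to 1.29 CPM, was not called (0.62, SE 0.358, adjusted p = 0.236 by edgeR). Without library 25, the number called was again 10 of 11, where 32.9% of 14154 genes were called higher. It was 6 with library 14 or 15 of cis left out, and 10 of 23 with all libraries and no filter on low counts. In this comparison, 284 other protein-coding genes with a longest transcript under 1000 bases had a median log2 fold change of 0.52, whereas the median of all genes tested was 0.01, and 5 of the 11 members tested are as short. The part of transcript length in the members' values was not tested.

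Within cis SSP cells, the calls on carboplatin and deprivation turned on libraries 25 and 32. With all libraries, HIST1H2AG was the 1 member called with carboplatin in complete medium, at 4.93, 5.70 and 4.93 CPM against 2.64, 3.14 and 2.51 CPM (log2 fold change 0.94, SE 0.150, adjusted p = 0.0333 by edgeR). That was 1 of 13 tested, where 1.97% of 13885 genes were called higher and 1.52% were called at a log2 change of 1 or beyond, and no member was called when any library other than 25 was left out. Without library 25, 11 of 14 members tested were called, all higher, where 21.9% of 14170 genes were called higher. HIST1H2BK then had a log2 fold change of 0.98 (SE 0.0510) in place of 0.71 (SE 0.212), from 42.1 and 37.4 CPM to 77.6, 79.1 and 74.9 CPM, and HIST1H1C 0.57 in place of 0.26. One fit over the 36 libraries called 10.

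For deprivation of cis SSP cells edgeR called 0 of 11 members, where 0.0218% of 13736 genes were called. At an unadjusted p under 0.05 there were 2, HIST1H2AG (log2 fold change 0.81) and HIST4H4 (-0.82), and DESeq2 called 0. With libraries 25 and 32 both left out, 2 members were called, HIST1H2AG (0.79, SE 0.194) and HIST1H2BK (0.18, SE 0.0608), where 18.9% of 13925 genes were called higher. For carboplatin in deprived cis SSP cells edgeR called 0 of 11, where 1.17% of 13541 genes were called higher. There were 2 at an unadjusted p under 0.05, HIST1H4H (0.90) and HIST1H2BJ (0.54), and DESeq2 called 0. Without library 32, 6 of 12 were called higher, where 21.1% of 13833 genes were, with HIST1H4H at 1.02 (SE 0.232) and HIST1H2BK at 0.60 (SE 0.0479).

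Across the 12 conditions the detected members followed more than one course. HIST1H2BK was highest in wt -SG carbo (307 CPM ± 38.5, SD, n = 3) and wt carbo (298 ± 2.17), a pair that did not differ beyond its spread, followed by wt (114 ± 0.823) and wt -SG (109 ± 1.67). Next came cis SSP carbo (77.2 ± 2.16), whose libraries lay above those of cis SSP -SG carbo (66.6 ± 1.70) without overlap. The latter overlapped with cis -SG carbo (63.9 ± 4.09). Then came cis SSP -SG (54.6 ± 17.4), cis -SG (52.3 ± 1.09) and cis SSP (48.7 ± 15.7), which overlapped and of which cis SSP -SG and cis SSP include libraries 32 and 25. Last were cis carbo (22.99 ± 1.24) and cis (16.2 ± 0.690). HIST1H2AC was highest in cis -SG carbo (26.4 ± 1.14), followed by wt -SG carbo (20.1 ± 2.21) and cis -SG (19.8 ± 0.570), a pair within its spread, and was lowest in cis (2.39 ± 0.159). Deprived cis cells exceeded wt cells in HIST1H2AC, and had less than wt cells in HIST1H1C (9.53 to 11.4 CPM against 27.5 to 29.5 CPM).

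Pearson's r of log2 condition means, a description over 12 points that share libraries and cells, was 0.975 between HIST1H1C and HIST1H2BJ and 0.977 between HIST1H1C and HIST1H2AI. It was 0.532 between HIST1H1C and HIST1H2AC and 0.416 between HIST1H1C and HIST1H2BN. HIST1H2AC in turn had an r of 0.982 with HIST1H2BD, 0.96 with HIST1H2BN and 0.87 with HIST1H4H, and HIST1H4H one of 0.963 with HIST1H3D. The summed level of the 27 members with short transcripts was compared with 11784 other protein-coding genes with a mean of at least 20 counts. Most similar were MYOF (r = 0.983), VPS39 (0.981), ZNF790 (0.981), CEACAM1 (0.977) and FAM120B (0.976). Of the 27, 8 were detected. The 27 took 84.4% of all member counts, and HIST1H2BK and HIST1H1C, both among them, took 72.7%, so the sum describes mostly these genes.

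**Figure D4:**
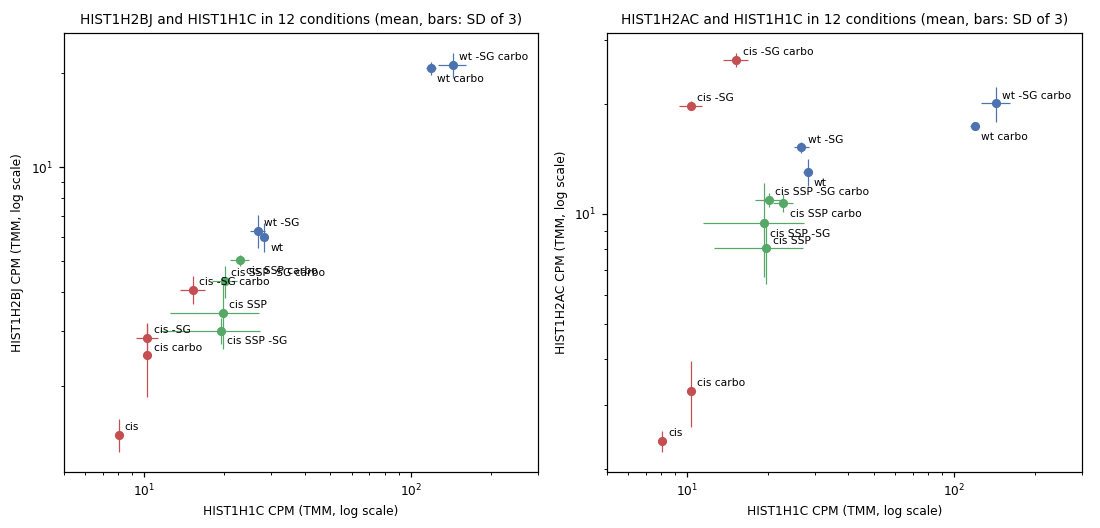
Condition means (points, with bars of 1 SD of 3 libraries, both axes logarithmic, CPM) of HIST1H2BJ (left) and HIST1H2AC (right) against HIST1H1C, blue for wt, red for cis and green for cis SSP. HIST1H2BJ followed HIST1H1C through the 12 conditions (r = 0.975), whereas in the right panel cis -SG and cis -SG carbo stand above conditions with as much HIST1H1C.

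Members that start back to back did not always have similar log2 fold changes. HIST1H2BJ and HIST1H2AG lie 247 bases apart on chromosome 6 and are read in opposite directions. With carboplatin in wt cells they had log2 fold changes of 1.80 and 1.75, and between cis and wt cells of -2.13 and -3.03. HIST1H2BC and HIST1H2AC lie 218 bases apart. Their log2 fold changes were 1.46 (SE 0.181) and 0.42 (SE 0.0756) with carboplatin in wt cells, and 1.19 (SE 0.261) and 3.11 (SE 0.108) on deprivation of cis cells. The differences within pairs were not tested, and HIST1H2BC also overlaps HFE, HIST1H4C and HIST1H1T, as given above. HIST3H2A and HIST3H2BB, 229 bases apart on chromosome 1, had 3123 and 350 counts over the 36 libraries, and HIST1H2AA and HIST1H2BA, 214 bases apart, had 0 each. HIST1H2BL and HIST1H2AI, 243 bases apart, had 228 and 638, and HIST2H2BE and HIST2H2AC, 235 bases apart, had 0 each.

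Genes outside the clusters that encode replacement histones did not follow the clustered members in each comparison. With carboplatin in wt cells, 8 of 11 fell and 3 rose, where 39% of all genes tested were called lower and 38.9% higher. CENPA, the centromeric H3 variant, fell by 2.70 on the log2 scale, the linker histone genes H1FX and H1F0 fell by 1.52 and 1.40, and H3F3B, an H3.3 gene, rose by 0.53. On deprivation of cis cells 7 fell and 2 rose, where 37.4% of all genes were called lower and 37.6% higher, with CENPA at -1.45, H2AFJ at -0.79 and H3F3B at 0.35. Between cis and wt cells 8 were lower and 2 higher, where 39.1% of all genes were called lower and 39.4% higher, with H1F0 at -1.09 and H2AFX, whose mRNA can also end in a stem-loop, at -0.90.

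Of 24 S phase genes, 23 fell and 1 rose with carboplatin in wt cells, beside the 39% of all genes called lower, with CCNA2, the cyclin of S phase and G2, at -2.25, PRIM1, a primase subunit, at -1.75, and PCNA, the sliding clamp, at 0.39. On deprivation of cis cells 22 fell and 1 rose, beside 37.4% called lower of all genes, with CCNA2 at -1.58 and the ribonucleotide reductase gene RRM1 at -1.24. In wt cells 23 fell on deprivation, where 25.1% of all genes were called lower, among them RRM2 (-0.77), a comparison in which HIST1H2BK had a log2 fold change of -0.06. Between cis and wt cells 11 were higher and 9 lower, beside 39.4% and 39.1% of all genes, with a median log2 fold change of 0.02.

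Among histone chaperones, 15 of 20 tested fell and 4 rose with carboplatin in wt cells, where 39% of all genes were called lower and 38.9% higher. HJURP, which deposits CENPA, fell by 1.97, the CAF-1 subunit CHAF1A by 1.26, and DAXX, an H3.3 chaperone, rose by 0.94. In deprived cis cells 14 fell, among them HJURP (-1.13) and ASF1B (-0.92), and 1 rose, where 37.4% of all genes were called lower and 37.6% higher. Of the genes for histone transcription and 3′ end processing, 8 of 24 rose and 11 fell with carboplatin in wt cells, beside the 38.9% and 39% of all genes called higher and lower, with CDK2 at -1.07, CASP8AP2, an NPAT partner, at -0.95 and the cap-binding gene NCBP2 at 0.47. Between cis and wt cells 15 were higher and 6 lower, beside 39.4% and 39.1% of all genes, with CCNE2 at 2.12, NPAT, the coactivator of clustered histone genes, at 0.66 and CPSF3, the endonuclease that cuts histone pre-mRNA, at -1.34. On deprivation of cis cells 4 rose and 12 fell, beside 37.6% and 37.4% of all genes, with HINFP, an activator of H4 genes, at 0.61 and CDK2 at -1.04.

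RNAs without a poly(A) tail were mostly low in the libraries. Of 25 such genes 17 could be matched, and RN7SL2 and RN7SK were the 2 that entered the test in wt and cis cells. Their summed level was 20.4 CPM in wt, 22.5 CPM in wt carbo, 23.9 CPM in cis, 26.5 CPM in cis -SG and 49.5 CPM in cis SSP -SG carbo, the highest of the 12 conditions. RN7SL2 had log2 fold changes of 0.25 between cis and wt cells and of 0.23 on deprivation of cis cells, and was called in both. With carboplatin it had log2 fold changes of 0.40 in cis cells, 0.43 in deprived cis cells and 0.15 in wt cells, called in each, the last with overlapping groups. RN7SK had a log2 fold change of 0.75 with carboplatin in deprived wt cells and was called there. The part of RNA selection in the members' values was not tested.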

How the data were processed

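RNA-seq was carried out on 36 libraries of 12 conditions. The authors aligned 65-base single reads with STAR to GRCh37.p13 and counted reads at exons with HTSeq on GENCODE v19, and the deposited values are raw counts per gene. From these counts, each comparison was fitted on all genes of its own libraries with edgeR 4.0.16 in R 4.3.3 (TMM, filterByExpr, robust quasi-likelihood test), and p-values were adjusted by Benjamini-Hochberg, with calls at an adjusted p under 0.05. CPM were scaled by TMM over the 36 libraries. The members and gene lists were chosen with earlier results of these data known. Named were the 10 most abundant members. In each comparison, up to 5 called members per direction were named (mean of at least 20 counts, groups not overlapping). Up to 3 such genes per list and direction were also named, and the 5 genes most like the sum of the members with short transcripts. Others were chosen after their values were seen. Positions and lengths are those of GENCODE v44 placed on GRCh37. Alternatives were DESeq2 1.42.0, its size factors, total counts, no filter on low counts, a joint fit of the 36 libraries, a call that also needs a log2 change of 1 or beyond in either direction, and each library left out. The fits were tested on simulated data.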

Additional observations from a re-analysis of the deposited data

Results flagged for a closer look

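Carboplatin responses were unequal in wt and cis cells for 8 members by the interaction term of edgeR's quasi-likelihood test, with the larger log2 response in wt for each. The difference was 1.71 for HIST1H1C, 1.33 for HIST1H2AG, 1.27 for HIST1H4H, 1.26 for HIST1H2BC, 0.91 for HIST1H2BJ, 0.86 for HIST1H2BK and 0.59 for HIST3H2A. It was 3.11 for HIST1H2AI, which had 7 counts over the 3 cis libraries and 7 over the 3 cis carbo libraries.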

How the results depend on the processing

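The members called lower in cis against wt numbered 11 with each library left out and 11 to 14 under the other alternatives. The 14 were of 23 members tested without a filter on low counts. Those called in cis -SG against cis numbered 12 with each library left out and 11 to 13 under the others. The 13 were of 24 members tested without that filter, 12 of them higher and 1 lower. In cis carbo against cis, 1 member was called by DESeq2, 1 in one fit over the 36 libraries and 0 when calls also needed a log2 change of 1 or beyond. In cis SSP carbo against cis SSP the numbers were 10 in the joint fit, 0 at that fold and 0 to 11 with 1 library left out. In wt -SG against wt they were 1 with total counts, 1 without a filter, 0 by DESeq2, 0 in the joint fit, 0 at that fold and 0 to 2 with 1 library left out. In cis SSP -SG against cis SSP they were 1 in the joint fit and 2 with libraries 25 and 32 both left out, an alternative chosen after seeing the data. In cis -SG carbo against cis -SG they were 3 by DESeq2, 2 in the joint fit, 0 at that fold and 3 to 6 with 1 library left out. In cis SSP -SG carbo against cis SSP -SG they were 2 in the joint fit and 0 to 6 with 1 library left out. In cis SSP against cis they were 6 to 10 with 1 library left out. For the interaction, 5 members passed at that fold. At a mean of 5 CPM, 9 members were detected in place of 15. The log2 fold change of HIST3H2A in cis SSP -SG carbo against cis SSP -SG, -0.01 with all libraries, ran from -0.36 to 0.65 with 1 library left out, the latter without library 32. The causes were not tested. Of the other values for named members, 1456 kept their call, 34 gained a call and 91 lost one. Values not called in either fit were counted among the 1456 even where their direction changed. No paired analysis was possible because the labels give no replicate numbers within conditions. Low counts limit HIST1H2AI, HIST1H3D and HIST1H1E in cis cells.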

Other observations

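The 9 members of the HIST2 cluster on chromosome 1 had almost no counts. HIST2H2AA4, HIST2H4A and HIST2H4B could not be linked to an identifier, so the cluster was not measured as a whole. Of the 9 members 8 had no count, and HIST2H2BF had 2 counts over the 36 libraries. The unique share of 65-base windows was 35.4% in HIST2H2BF, 28.6% in HIST2H3PS2 and 25.9% in HIST2H3D. HIST2H2BE, an H2B gene with a transcript of 2224 bases and 94.0% unique 65-base windows, was among those with no count, whereas HIST2H3A, HIST2H3C and HIST2H2AA3 had no unique window. Of the 17 other protein-coding genes within 0.5 Mb of the cluster 4 had no count, as had 9.18% of the 19404 protein-coding genes counted.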
